A study of Mus musculus with 72 samples.

Results

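White adipose tissue, labelled eWAT, was compared between full-body Bmal1-KO mice (KO) and WT mice at ZT8, that is 8 h into the zeitgeber day, with 4 libraries per genotype (titles ZT8_1 to ZT8_4). These 8 of the 72 libraries in the series were taken by their titles, and each was tied to its column of counts by the plate position in its label and in the column name. The series also holds another genotype, LRE, which the labels do not expand, and 5 other times (ZT0, ZT4, ZT12, ZT16 and ZT20), again with 4 libraries each. The series text names the SmartSeq3 method and AML12 cells, a mouse hepatocyte line; the sample labels were followed here. The labels give no age, sex or strain and do not tie replicates to different mice, so the spread behind each p-value may be technical.

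BMAL1 is a transcription factor that pairs with CLOCK, binds E-box elements and switches on the Per, Cry and Rev-erb genes and many output genes; PER and CRY proteins then inhibit the pair, which closes the daily loop. Mice without Bmal1 lose behavioural rhythm in constant darkness. In white fat the clock is known for timing lipid storage, lipolysis and adipokine release. The rows of the deposited table carry no gene name or identifier, so none of these genes could be located. The Bmal1 level was not checked, and markers of fat or other tissues were not looked up. Features are called by row number (the first row under the header is 1) for 2 features in each direction, and by rank or count otherwise.

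Library totals at ZT8 were 92136 to 149331 counts in WT and 69177 to 165344 in KO, so that 1 count equals between 6.38 and 14.8 CPM (counts relative to library size after TMM scaling). Of 32377 rows, 17033 had a count in these libraries and 2035 passed the rule of at least 10 counts in at least 4 of the 8. Of the tested rows 48 passed through the 4 KO libraries alone and 44 through the 4 WT libraries alone, which favours a difference by the choice of rows. All 48 were called higher, while 24 of the 44 were called lower and 20 were not called. The WT libraries resembled each other, with rank correlations over the tested rows of 0.78 to 0.82. Those between KO libraries ran from 0.43, for replicates 1 and 3, to 0.80, for replicates 1 and 4. KO replicates 1 and 4 stood apart from WT, with a median rank correlation with the 4 WT libraries of 0.28 and 0.32, while replicate 2 was at 0.52 and replicate 3 at 0.68. Over the tested rows the median SD of log2 CPM was 0.33 in WT and 0.53 in KO, and 76.4% of rows had the larger SD in KO. WT libraries carried position number 1 and KO libraries position number 4 in their names, so plate position and genotype cannot be told apart.

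KO and WT differed at 234 of 2035 rows at ZT8, which is 11.5% (edgeR quasi-likelihood F-test, Benjamini-Hochberg adjusted p under 0.05). In KO 135 rows were higher (6.63%) and 99 lower (4.86%). Changes were large: 71 of the higher rows and 20 of the lower rows changed at least 4-fold, 43 higher rows and 1 lower row more than 16-fold, and only 1 of the 234 less than 2-fold. The median log2 fold change was 2.14 for the higher rows, -1.52 for the lower rows and 0.04 for all tested rows. The CPM ranges of the 2 groups did not overlap for 99 of the 135 higher and 93 of the 99 lower rows, and for 330 of all 2035 rows (16.2%), 163 with KO above (8.01%) and 167 with KO below (8.21%). Calls were spread over levels, with 44, 44 and 47 higher rows and 30, 28 and 41 lower rows in the 679 rows of lowest, the 678 of middle and the 678 of highest mean log2 CPM. In simulated counts 49 of 50 rows were recovered at a log2 fold of 2 but 9 of 50 at 1, so differences of the smaller size were mostly missed there. The simulated rows were independent and had the same spread in both genotypes, unlike the real counts.

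**Figure D1:**
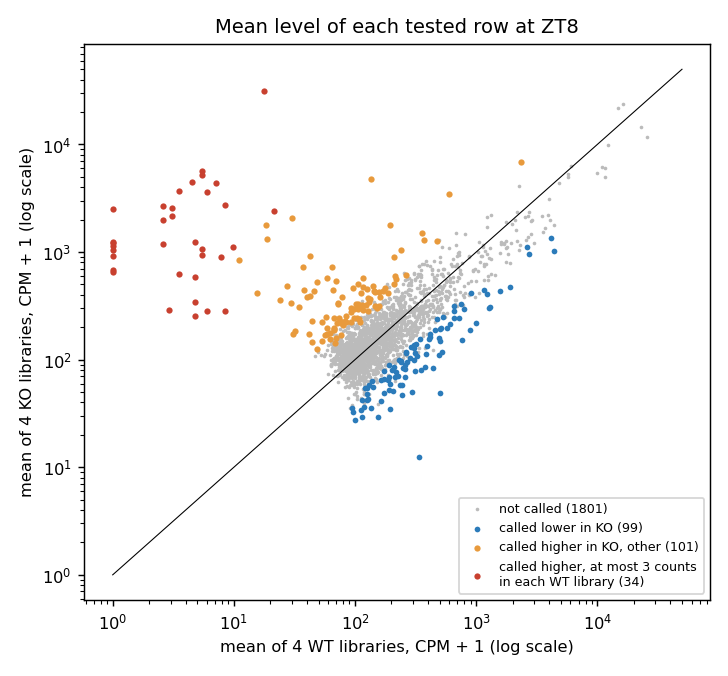
Mean CPM + 1 of each of the 2035 tested rows in the 4 WT libraries (horizontal, log scale) and the 4 KO libraries (vertical, log scale) at ZT8, with the line of equality. The 34 red rows lie along the left edge, near 0 in WT and at mean levels of 252 to 31446 CPM in KO.

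The count depended on the KO libraries used. Without KO replicate 3, the library nearest to WT, 562 rows were called, and without KO replicate 4 only 110. Leaving out KO replicate 1 gave 139, WT replicate 1 gave 139, WT replicate 2 gave 130 and WT replicate 3 gave 136. Without KO replicates 1 and 4 together, an alternative chosen after seeing the data, 90 rows were called, 66 higher and 24 lower, and 83 of these were among the 234 in the same direction. In all 8 fits that left out 1 library, 28 of the 99 lower rows were called, and 41 of the 101 higher rows that remain once 34 rows near 0 in WT are set aside.

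The strongest differences were in rows that were nearly silent in WT and abundant in KO. There were 34 rows with at most 3 counts in every WT library and at least 10 in every KO library, 8 of them with no WT count at all. Since they passed the filter through KO alone, the fact that all 34 were called, here and without any 1 library, is no added evidence. They made up 25.2% of the higher rows. In KO their mean level ranged from 252 to 31446 CPM with a median of 1190. Together they held 12%, 6.10%, 1.17% and 12.2% of all counts in KO replicates 1 to 4, against 0.00603%, 0.00625%, 0.0212% and 0.0260% in WT replicates 1 to 4. The direction follows from how the rows were chosen; the size of the share, and its wide range among KO libraries, do not.

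The feature in row 22244 led this set. It stood at 50504, 23840, 3734 and 47708 CPM in KO replicates 1 to 4 and at 6.38, 8.25, 22.9 and 29.9 CPM in WT. WT values rest on 1 to 3 counts per library, 8 in all, against 12033 in KO. The ratio of summed counts over scaled library sizes was 2006, with a 95% exact conditional interval of 1018 to 4647 that covers counting error only (edgeR adjusted p = 4.70e-06). The feature in row 2038 was at 10130, 4556, 639 and 7471 CPM in KO and at 0, 0, 7.64 and 9.98 CPM in WT. It had 2 WT counts and 2096 KO counts, a ratio of 1398 with an interval of 386 to 11548 (edgeR adjusted p = 1.14e-05). Both features were lowest in KO replicate 3.

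The 34 rows moved together across KO libraries. All 34 were lowest in KO replicate 3, and the highest library was replicate 4 for 21 of them and replicate 1 for 13. Against replicate 3, the median row was 11.7 times as high in replicate 1 (quartiles 9.04 and 15.3), 3.98 times in replicate 2 (2.97 and 6.38) and 13.0 times in replicate 4 (9.37 and 17.8). KO replicates 1 and 4, with the largest shares on these rows, were also the 2 least correlated with WT, although replicate 4 had the larger share and replicate 1 the lower correlation. In bulk tissue a change in cell number and a change in RNA per cell cannot be told apart.

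The same rows were followed in libraries that did not choose them. In LRE at ZT8 they held 0.0880%, 0.00514%, 0.0116% and 0.0208% of counts in replicates 1 to 4, a range that overlaps WT. In KO at other times their share ran from 0.259% to 5.22% at ZT0, 0.151% to 12.5% at ZT4, 0.339% to 13.4% at ZT12 and 2.63% to 14.8% at ZT16, but only from 0.0387% to 0.0552% at ZT20. WT libraries held them too, at 0.0115% to 2.03% at ZT0, 0.311% to 3.42% at ZT16 and 0.0323% to 0.256% at ZT20. The WT and KO ranges thus overlapped at ZT0, ZT16 and ZT20. At ZT4 and ZT12 WT libraries stayed at or below 0.0679%. LRE ran from 0.151% to 12.4% at ZT0, 0.0965% to 12.3% at ZT4, 2.71% to 17.98% at ZT16 and 0.116% to 13.9% at ZT20. At ZT12 LRE ran from 0.00236% to 0.0324%. At ZT16 all 4 KO libraries and all 4 LRE libraries were above 1%. All 4 KO libraries were so at ZT8 too, which the choice of rows favours.

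**Figure D2:**
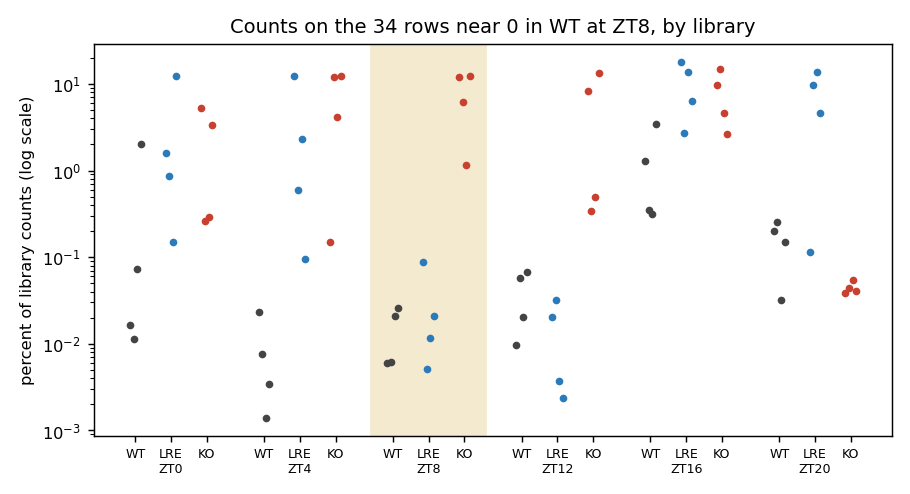
Percent of each library's counts on the 34 rows that were near 0 in WT at ZT8 (vertical, log scale), for 4 libraries in each genotype and time, with ZT8 shaded. At ZT8 all KO libraries lie at 1.17% or above while WT and LRE stay at or below 0.0880%; libraries of 1 group are often spread widely, at ZT8 as at other times.

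The other 101 higher rows had a median log2 fold change of 1.67. Of these, 14 also passed the filter through KO alone, which favours a call. All 48 tested rows that passed in this way were called higher. The remaining 87 had a median of 1.60. The 101 rows held 1.24% to 1.54% of counts in the WT libraries. They held 6.99%, 3.76%, 2.41% and 7.41% in KO replicates 1 to 4, so KO replicate 3 was again the lowest. The first of the 87 by p was at 8309, 1754, 750.4 and 8092 CPM in KO and at 89.3, 140.2, 160.5 and 149.7 CPM in WT, where it had 14 to 21 counts per library (log2 fold change 5.13 ± 0.70 SE, edgeR adjusted p = 8.26e-05). KO replicate 3 was the KO library nearest to the WT mean for 81 of the 101 rows, against 944 of all 2035 rows. In that library 27 of the 101 stood at least 2-fold above the WT mean, compared with 97, 64 and 100 in replicates 1, 2 and 4. Without KO replicates 1 and 4, 27 of the 101 were still called higher.

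The 99 lower rows took 5.38% to 5.83% of counts in WT and 0.820%, 1.79%, 2.86% and 1.01% in KO replicates 1 to 4. That KO is below WT in this sum follows from the choice of rows; the order of the KO libraries does not. Relative to the WT mean the median lower row was at a log2 difference of -1.97, -1.23, -0.87 and -1.73 in KO replicates 1 to 4. Replicate 3 was the nearest to WT for 65 of the 99, against 944 of all 2035 rows. Among KO libraries, the medians of both higher and lower rows lay farthest from WT in replicates 1 and 4, the libraries with the largest share on the 34 rows. When those 34 rows were taken out before scaling (chosen after seeing the data), 99 rows were again lower, 96 of them the same.

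**Figure D3:**
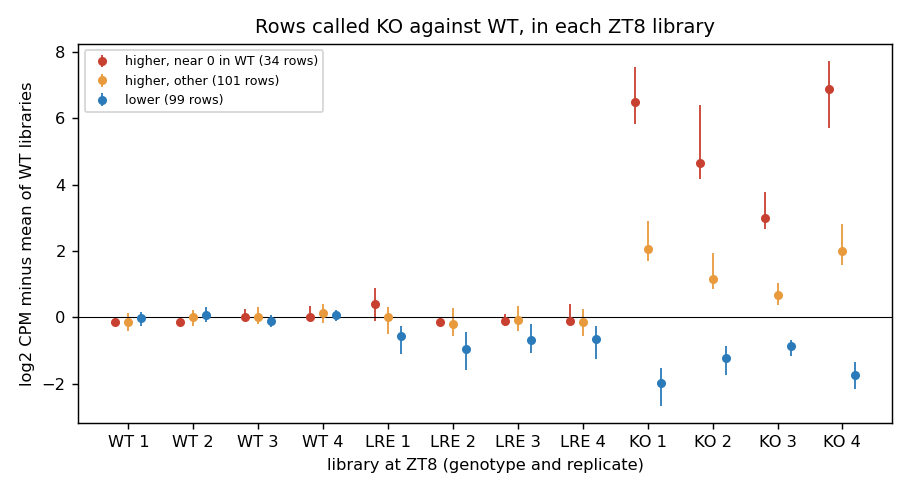
Median (point) and quartiles (bar) of log2 CPM minus the mean of the WT libraries, over the 34 rows near 0 in WT, the other 101 higher rows and the 99 lower rows, in each of the 12 libraries at ZT8. The rows were called from the WT and KO libraries shown; LRE libraries did not enter the choice, and in them the higher rows stay near 0 while the medians of the lower rows lie between -0.94 and -0.58.

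Single lower rows did not all follow that order, though their KO values rest on few counts. The feature in row 20125 had the smallest p among lower rows. It was at 306, 305, 321 and 409 CPM in WT replicates 1 to 4 and at 0, 29.5, 9.26 and 7.23 CPM in KO, the latter from 4 counts in all against 168 in WT. Its WT level was 31.5 times as high by summed counts, with an interval of 12.1 to 117 (log2 fold change -4.84 ± 0.48 SE, edgeR adjusted p = 1.14e-05). The feature in row 21636 was at 587, 412, 443 and 559 CPM in WT and at 29.6, 59.0, 83.4 and 21.7 CPM in KO, a log2 fold change of -3.36 ± 0.41 (adjusted p = 4.15e-05). The third lower row by p was at 345, 280, 290 and 270 CPM in WT and at 44.4, 44.2, 37.1 and 72.3 CPM in KO (-2.51 ± 0.34, adjusted p = 7.82e-05). In it KO replicate 3 was not the nearest to WT. It was the lowest library by less than the level of 1 count, which does not settle the order. These rows were picked by a rule that asks for ranges that do not overlap. For row 20125 KO replicate 2, and for the third row KO replicate 4, was the highest of the KO libraries. In row 20125 KO values rest on 0, 2, 1 and 1 counts in replicates 1 to 4, which do not settle an order. Rows 22244, 2038, 20125 and 21636 stayed past the threshold in the same direction in each setting that tested them. Each was picked by its p and reached 10 counts in libraries of a single genotype alone, so this is no added evidence.

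**Figure D4:**
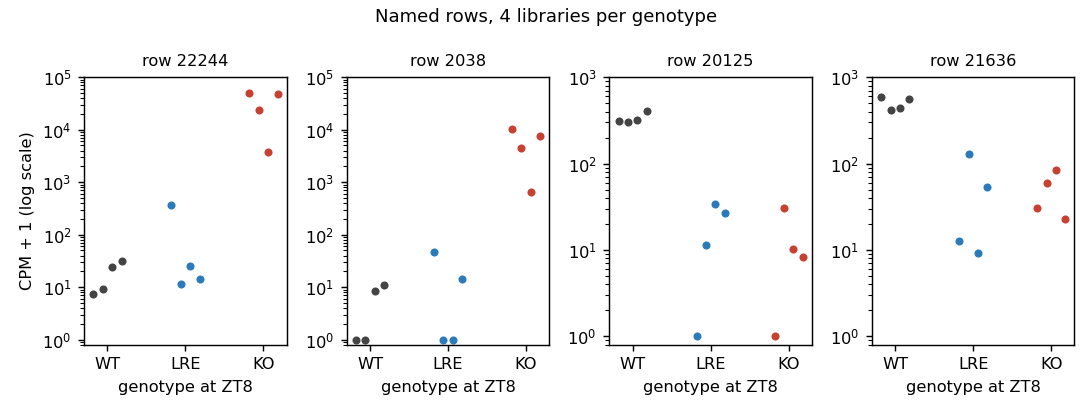
CPM + 1 (log scale) of the 4 named rows in the 4 WT, 4 LRE and 4 KO libraries at ZT8, replicates 1 to 4 from left to right. Rows 22244 and 2038 are high in KO alone, while rows 20125 and 21636 are high in WT and low in both LRE and KO.

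LRE at ZT8 was set beside both groups in a fit of the 12 ZT8 libraries. LRE against WT shares the WT libraries, and KO against LRE the KO libraries, with the comparison above. LRE libraries of ZT8 carried a position number other than those of WT and KO. Plate position and genotype cannot be told apart here either. LRE and WT differed at 58 rows (2.85%), 23 higher (1.13%) and 35 lower (1.72%) in LRE, while KO and LRE differed at 400 (19.7%), 239 higher (11.7%) and 161 lower (7.91%) in KO (edgeR, adjusted p under 0.05). Of the 135 rows higher in KO than WT, none was called higher in LRE than WT and 1 was called lower; their median log2 difference of LRE from WT was -0.07. KO was called above LRE at 124 of the 135, including all 34 rows near 0 in WT. The 135 rows were chosen as high in the same 4 KO libraries, which alone favours KO above LRE. The lower rows were split. LRE was called below WT at 23 of the 99, with a median log2 difference of -0.72, and KO was called below LRE at 26, with a median of -0.80. For 51 of the 99 the LRE mean lay nearer to WT and for 48 nearer to KO. Over all 2035 rows the median of LRE minus WT was -0.01 and the LRE mean lay nearer to WT for 1384. The 99 rows were chosen as high in the same 4 WT libraries, which alone can bring LRE below WT. They were also chosen as low in the same 4 KO libraries, which alone can bring KO below LRE. How much of these differences, or of KO above LRE, the choice of rows accounts for was not tested. The LRE count was unsteady: it was 8 without LRE replicate 3, 12 without WT replicate 4, 14 without WT replicate 2 or LRE replicate 1, 16 without WT replicate 3 and 19 without LRE replicate 2. KO against LRE gave 204 without KO replicate 4, 223 without KO replicate 1, 248 without LRE replicate 3, 265 without LRE replicate 1 and 718 without KO replicate 3.

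Single lower rows differed in this. Row 20125 was at 0, 10.5, 33.0 and 26.1 CPM in LRE replicates 1 to 4, a log2 difference from WT of -4.12 (edgeR adjusted p = 1.98e-05). Row 21636 was at 11.6, 126, 8.24 and 52.2 CPM in LRE (-3.36, adjusted p = 0.000503). Both rows were picked as high in the same WT libraries, which alone favours LRE below WT. In both the LRE and KO ranges overlapped, and KO minus LRE was -0.72 for row 20125 (adjusted p = 0.556) and 0.00 for row 21636 (adjusted p = 1.00), which does not show that they are equal. The fourth lower row by p was otherwise. It was at 396, 569, 459 and 529 CPM in WT, at 440, 73.7, 355 and 431 CPM in LRE and at 59.2, 133, 176 and 72.3 CPM in KO. KO was called below LRE there (log2 difference -1.52, edgeR adjusted p = 0.0210), while LRE minus WT was -0.60 (adjusted p = 0.484), with LRE replicate 2 down at the KO level.

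KO and WT libraries of other times, which share no library with ZT8, were fitted over the same 2035 rows. Those of ZT0, ZT4 and ZT12 carried the same position numbers by genotype as those of ZT8. At ZT4, KO and WT differed at 127 rows (6.24%), 75 higher (3.69%) and 52 lower (2.56%). Of the 101 higher rows outside the near-0 set, 100 were above WT at ZT4 by fitted fold, with a median log2 of 1.31 and 31 called higher. Of the 99 lower rows, 97 were below WT, with a median of -1.14 and 26 called lower. Over all tested rows at ZT4 54.5% were above WT and the median was 0.06. At ZT12, where 49 rows were called (2.41%), 28 higher (1.38%) and 21 lower (1.03%), 85 of the 101 were above WT with a median of 0.70 and 5 called, and 92 of the 99 lower rows were below with a median of -0.76 and 15 called. At ZT0, with 49 rows called (2.41%), 29 higher (1.43%) and 20 lower (0.983%), 70 of the 101 were above (median 0.26, 1 called) and 79 of the 99 below (median -0.64, 13 called). Shares over all rows were 54.2% above at ZT12 and 52.0% at ZT0. ZT4 thus held the largest medians among the other times in both directions.

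ZT16 and ZT20 differed from the earlier times and ZT12. Both WT and KO libraries carried other position numbers at ZT16 and ZT20 than at ZT0 to ZT12. Time and plate position thus cannot be told apart in this split. At ZT20 no row was called by edgeR (404 rows at an unadjusted p under 0.05), and 90 of the 101 higher rows were below WT with a median log2 of -0.89, while 54 of the 99 lower rows were below WT, near the 54.7% of all rows. At ZT16 200 rows were called (9.83%), 60 higher (2.95%) and 140 lower (6.88%), and 52.8% of all rows were above WT. There 69 of the 99 lower rows were above WT with a median of 0.44, 2 called higher and 1 called lower. The 101 higher rows were split, 49 above WT and 52 below, with 0 called higher and 6 called lower. Of the 34 rows near 0 in WT at ZT8, 28 were above WT at ZT16 and 5 at ZT20, against 34 at both ZT4 and ZT12. At ZT16 1 of the 34 was called higher and 2 were called lower. The 4 WT libraries of ZT16 stand apart from the other WT libraries, with a median rank correlation with single WT libraries of ZT8 of 0.18 to 0.27. Outside ZT16 the direction of ZT8 was kept at all 4 other times by 47 of the 99 lower rows and by 8 of the 101 higher rows. The share over all tested rows was not counted, so neither count can be set against it.

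The test of the difference itself, KO minus WT at ZT8 against its mean over ZT0, ZT4, ZT12 and ZT20, called 0 of 2035 rows by edgeR in the fit of these 40 libraries, with 356 rows (17.5%) at an unadjusted p under 0.05. DESeq2 called 28 and limma-voom 0, and edgeR called 11 without KO replicate 3 at ZT8 and 2 with the replicate number as a block. The median of this difference was 1.56 on the log2 scale over the 101 higher rows, -0.93 over the 99 lower rows and 0.05 over all rows; the ZT8 term in it is the one that chose the rows. In the fit of these 40 libraries, edgeR thus showed no row whose KO minus WT at ZT8 differed from its mean over the other times. The contrast does not test whether a difference is confined to ZT8.

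The 2 named lower rows differed in their course over the day, given here in CPM scaled over all 72 libraries. Over 4 WT libraries, row 20125 had a mean of 31.8 ± 16.2 CPM (SD) at ZT0, 200 ± 69.1 at ZT4 and 313 ± 47.5 in the ZT8 group, then 95.6 ± 38.6 at ZT12, 23.9 ± 12.5 at ZT16 and 14.8 ± 20.2 at ZT20. ZT8 was thus its highest WT time, with a lowest library of 285 CPM against a highest of 266 at ZT4. The row was picked by its p at ZT8, which favours a high WT level and a large difference at that time. In KO its group means stayed between 7.19 and 20.5 CPM and in LRE between 3.62 and 23.1 CPM. KO minus WT was called at ZT4 (log2 -4.45, edgeR adjusted p = 0.00314) but not at ZT12 (-2.61, 0.0983), ZT0 (-1.78, 0.366), ZT16 (-0.22, 0.886) or ZT20 (-0.24, 0.928), and the difference of ZT8 from these times other than ZT16 was -2.53 ± 0.90 SE (adjusted p = 0.177).

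Row 21636 was high in WT over most of the day, with means over 4 libraries of 892 ± 327 CPM (SD) at ZT0, 630 ± 86.9 (ZT4), 467 ± 80.1 (ZT8), 956 ± 344 (ZT12) and 450 ± 298 at ZT20, but at 89.3 ± 81.3 at ZT16. In KO its group means lay between 30.6 and 100.2 CPM. KO minus WT was called at ZT0 (log2 -3.30, edgeR adjusted p = 0.000835), ZT4 (-3.22, 0.00559) and ZT12 (-3.56, 0.000739), and was -1.14 at ZT16 (0.377) and -2.09 at ZT20 (0.153). Its difference of ZT8 from the other times was -0.28 ± 0.59 SE (adjusted p = 0.826). WT and KO libraries did not overlap at ZT0, ZT4, ZT8 or ZT12 in this row.

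**Figure D5:**
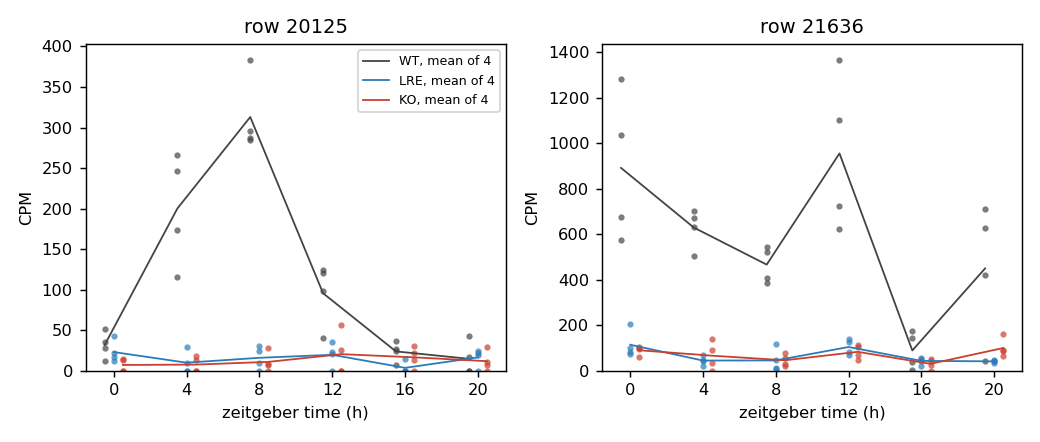
CPM of rows 20125 and 21636 in every library (points) and the mean of 4 libraries (lines) against zeitgeber time in hours, with genotypes set slightly side by side. Row 20125 reaches 313 CPM on average at ZT8 in WT and stays low in LRE and KO; row 21636 is at 388 CPM or above in every WT library from ZT0 to ZT12.

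Libraries of the 2 genotypes were also compared as wholes. Thinned to 69177 counts each, KO libraries held 10342.5 ± 338 rows with a count and WT libraries 9367 ± 393 (SD, n = 4), with no overlap (exact two-sided permutation test p = 0.0286, the smallest that 4 against 4 allows, and 0.143 adjusted over 5 measures). The 10 largest rows took 14.0% ± 0.97 of counts in KO and 15.5% ± 1.44 in WT (exact p = 0.171, adjusted 0.286). The median rank correlation of a library with the other 7 was 0.48 ± 0.16 in KO and 0.69 ± 0.02 in WT (exact p = 0.0857, adjusted 0.214). Totals did not separate the groups (exact p = 0.571).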

How the data were processed

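RNA of 72 eWAT samples was sequenced. The deposited table holds raw counts (whole numbers) in 32377 rows and 180 columns, of which 108 belong to no sample described here and were left aside. Per the submitters' processing notes the tools include STAR 2.5.4b and the builds mm10 and GRCm38. The alignments counted were sorted and deduplicated, per the file headers. Which counter, annotation and strand setting were used is not given in the sources used here. Rows that hold no gene, if any, stayed in the library sizes.

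Members, groups of rows and tests were chosen with earlier results of these data known. KO and WT at ZT8 were fitted in R 4.3.3 with edgeR 4.0.16 (8 libraries, TMM scaling, quasi-likelihood F-test, Benjamini-Hochberg over 2035 rows, threshold 0.05). LRE used 12 libraries, other times 8 each, and the difference between times 40. The SE of a log2 fold change is the fold change divided by the root of F, as an absolute value; log2 CPM used a prior count of 2. Alternatives included DESeq2 1.42.0, limma 3.58.1, RLE and upper-quartile scaling, other filters, thinning, a replicate block and leaving out each library.

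Named rows are the 2 with the smallest p in each direction among called rows whose ranges do not overlap and that have at least 10 counts in each library of the higher group; other single rows were described by their rank in that order. The set near 0 in WT was defined after seeing the data. The fit was tested on simulated data of KO against WT at ZT8 over 2035 rows. It recovered 49 of 50 rows at a log2 fold of 2 and again 49 at -2, but 9 of 50 at 1 and 11 at -1. Of 1835 rows left unchanged it called 6. Simulated rows were drawn independently with the same spread in both genotypes, so these shares need not hold for the real counts. Between libraries of 1 group the chi-square per degree of freedom was 1.70 to 9.62, so no pair was taken as 1 library.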

Additional observations from a re-analysis of the deposited data

Results flagged for a closer look

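In groups of 4 libraries, 5 of 70 sets of values held 1 library far from the other 3 by Dixon's 95% limit, where chance gives about 1 in 20, or 3.5. The share of counts on the 34 rows near 0 in WT at ZT8 was 2.03% in WT ZT0 replicate 4 and 12.4% in LRE ZT0 replicate 4. Row 22244 stood at 343 CPM in LRE ZT8 replicate 1. Row 20125 stood at 384 CPM in WT ZT8 replicate 4 and at 14.5 CPM in LRE ZT16 replicate 3, whose other 3 libraries had no count. These CPM values are scaled over all 72 libraries.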

How the results depend on the processing

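The 4 named rows kept direction and threshold in all 82 combinations of a row and an alternative. They were picked by p and passed the filter through a single genotype, which favours this outcome. For KO against WT the count of 234 (135 higher, 99 lower) became 364 (228 higher) with at least 5 counts in 4 libraries and 875 (612 and 263) with no filter; 209 were higher with a mean of at least 10 counts, 137 were called (46 lower) in the fit of 72 libraries, and 64 were lower after thinning to the smallest total. Without KO replicates 1 and 4 it was 90 (66 and 24). Leaving out 1 library gave 110 to 562 called, 78 to 284 higher and 32 to 278 lower. The share of higher calls, 57.7%, was 71.6% with the filter on the mean, 61.5% with RLE and 51.6% with upper-quartile scaling. LRE against WT gave 99 with DESeq2 and 34 with limma-voom, and 8 to 62 without 1 library; KO against LRE gave 204 to 718. The difference between times called 28 rows with DESeq2, 2 with the replicate block, and 0 to 11 without 1 library. Replicate numbers did not pair the libraries (correlations of same-numbered deviations -0.22, 0.01, -0.12 and 0.11); with the replicate number as a block 240 rows were called, 127 higher and 113 lower, 62 for LRE against WT and 397 for KO against LRE. Where a value moved, the cause was not tested. At these totals 1 count is 6.38 to 14.8 CPM, which limits rows under about that level.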
